A study of Homo sapiens with 18 samples.

Results

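Described here are 59 genes of G2 phase and mitosis, chosen by name from a fixed list of gene symbols, in U2OS cells, a human osteosarcoma line. All 59 were found among the 26702 genes of the deposited comparison tables, and all were tested in every comparison. Cells were transfected with siRNA against ANKRA2 (siANKRA2) or RFXANK (siRFXANK), both ankyrin repeat proteins, or with a control siRNA (siControl). They were then kept for 24 h in 10 µM Nutlin-3a, which frees p53 from its inhibitor MDM2, or in its solvent DMSO. This gave 6 groups of 3 samples, 18 samples in all, measured by RNA-seq of polyadenylated RNA. All groups share the U2OS background and a transfected siRNA, and 1 siRNA condition per target was analysed here.

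Entry into mitosis is driven by CDK1 bound to cyclin B, and exit by the anaphase-promoting complex (APC/C), which marks cyclin B and securin for destruction. The genes of this programme are kept silent in resting cells by the DREAM complex and are switched on in G2 by the MuvB core together with B-MYB (MYBL2) and FOXM1. Many of their promoters carry a short element, the cell cycle genes homology region (CHR), near the transcription start and CCAAT boxes, bound by NF-Y, farther upstream. Activated p53 raises CDKN1A, which encodes the CDK inhibitor p21, and p21 favours formation of DREAM.

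The deposited tables hold comparisons between groups and no values per library, so a group is given here by its mean in normalized counts. That mean was recovered from the authors' fold changes and standard errors, is approximate, and has a standard error (SE) for n = 3. Over the members, the authors' own mean was between 0.848 and 1.22 times the mean of the recovered groups, with a median of 1.04. No library depth is known. The labels do not say that the samples of a group were separate cultures, so p-values measure the spread between samples, which may be technical. A gene was called at an adjusted p under 0.05, by the authors' Wald test (DESeq2) in their comparisons and by a two-sided normal test in those derived here. Each siRNA was set over siControl in the direction that leaves its own target lower, with ANKRA2 at a log2 fold change of -1.81 ± 0.18 (SE) in DMSO and -2.58 ± 0.12 in Nutlin-3a after siANKRA2, and RFXANK at -2.96 ± 0.10 and -3.16 ± 0.10 after siRFXANK. In that reading RFXANK was also lower after siANKRA2 (-0.37 ± 0.07 and -0.44 ± 0.07), and ANKRA2 was higher after siRFXANK (0.73 ± 0.11 and 0.46 ± 0.06). For siRFXANK, the sign of the effects thus rests on the target itself and was not tested. For siANKRA2, the signs so read also closed with the 2 Nutlin-3a over DMSO comparisons as named. The largest error was 1.39e-14 in log2 fold change. The siRFXANK samples were registered apart from the others, with source and cell type labels of another form and no siControl samples of their own. In siRFXANK over siControl, the knockdown and such a batch cannot be told apart. Markers of mesenchymal and bone cells were present for 6 of 7 genes (authors' means from 33.2 to 64042 normalized counts, with TWIST1 not listed). Epithelial markers were listed for 6 of 6 genes, from KRT19 at 1.67 to KRT8 at 21456, and blood markers for 3 of 6, from 2.59 to 3.81.

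The promoters of the members are described first. The list was drawn up as targets of DREAM and FOXM1. Shares of CHR and CCAAT letters above those of all genes may thus follow from that choice. RefSeq gave a promoter for 50 of the 59 members on GRCh38.p14, from 250 bases before to 50 after each start. It gave none for AURKA, BIRC5, BUB3, FOXM1, PBK, RACGAP1, TPX2, TTK and UBE2C. The CHR letters TTTGAA, searched on both strands, stood in 33 of the 50, or 66% (exact binomial 95% interval 51.2 to 78.8). Among all 27305 genes with a promoter the share was 18.2%, and among the 9221 with an authors' mean of at least 100 it was 13.4%. The variant CHR TTCGAA, which reads the same on both strands, stood in 4 members, BUB1, CDC25B, NDC80 and SGO1, or 8% (interval 2.22 to 19.2). That interval holds the 2.44% of genes at or above that mean, and the share of all genes was 1.82%. CCAAT stood in 38 members, 76% against 39.7% of all genes and 43.3% of those above that mean. Both a CHR and a CCAAT box stood in 29 members, 58% against 9.02% and 8.37%. The E2F letters TTTCCCGC, TTTCGCGC, TTTGCCGC or TTTGGCGC stood in CDK1, CENPA and NUSAP1, 6% of the members (interval 1.25 to 16.5). That is within counting error of both the 3.99% of all genes and the 6.84% of genes above that mean. None of these letters stood in CENPE, GAS2L3, MELK, MYBL2 and TACC3, 10% of the members against 47.9% and 46.9%. A match is a description of the letters and not a bound site. Only these 2 forms of the CHR were searched, so a gene with neither may hold another form.

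Stretches of 6 promoters show the arrangement, printed 5′ to 3′ on the strand of the gene with the matched letters in capitals, where ATTGG is CCAAT on the other strand. For MKI67 and CDC20 these are the 100 bases before the start. Of the CDC20 bases, 26 lie in exons of the gene as annotated by GENCODE 29, and none of the MKI67 bases do. For CCNB1, CDK1 (its second RefSeq start), PLK1 and TOP2A over 30 of those bases lie in annotated exons, and only 30 bases around the match nearest to the start are given.
MKI67, chr10:128126424-128126523, minus strand: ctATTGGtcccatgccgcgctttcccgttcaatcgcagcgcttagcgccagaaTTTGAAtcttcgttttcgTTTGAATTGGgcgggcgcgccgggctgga
CDC20, chr1:43358881-43358980, plus strand: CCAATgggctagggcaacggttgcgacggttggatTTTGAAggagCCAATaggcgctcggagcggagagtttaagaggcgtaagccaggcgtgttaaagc
CDK1, chr10:60778448-60778477, plus strand: ccctttagcgcggtgagTTTGAAactgctc
PLK1, chr16:23678848-23678877, plus strand: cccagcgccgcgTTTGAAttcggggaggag
CCNB1, chr5:69167082-69167111, plus strand: tgccacgaacaggCCAATaaggagggagca
TOP2A, chr17:40417933-40417962, minus strand: gagcgagtcagggATTGGctggtctgcttc

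In MKI67, the CHR at -29 (its first base, counted from the start) overlaps a CCAAT box on the other strand at -24, and a second CHR lies at -47. In CDC20, a CHR at -65 lies between CCAAT boxes at -100 and -55. CDK1 has CHRs at -13 and -69 before this start, and PLK1 has 1 at -29 with a CCAAT box at -73. CCNB1 has CCAAT boxes at -55 and -87 and neither TTTGAA nor TTCGAA in its window. TOP2A has its TTTGAA matches farther out, at -151 and -194. Whether either gene holds another form of the CHR nearer to the start was not searched. Over all 64 member windows, some of which overlap, the median position of the 50 TTTGAA matches was -27.5 and that of the 88 CCAAT matches was -86. In the last 50 bases before the start or beyond it began 33 of the TTTGAA matches and 16 of the CCAAT matches.

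**Figure D1:**
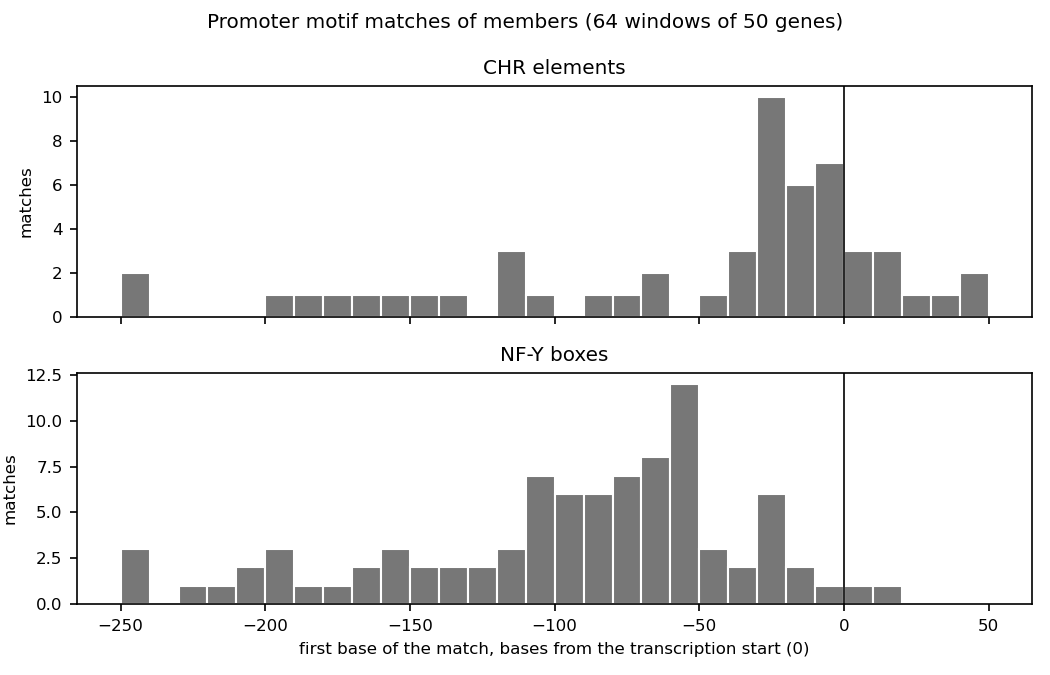
Histogram of motif matches in the promoters of 50 members (64 windows), in bins of 10 bases, with the distance of a match's first base from the transcription start on the x axis and the number of matches on the y axis. The upper panel holds both CHR elements and the lower panel CCAAT boxes (NF-Y boxes). CHR matches crowd in the last 3 bins before the start (median of TTTGAA -27.5), and CCAAT matches farther upstream (median -86).

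Levels of the 8 lead genes of the programme follow, with SEs that leave out the error of the recovered scale. On the scale of the authors' own mean, all 6 levels of a gene would be higher by the same share, from 0.141% for CDK1 to 14.6% for MKI67. CCNB1 (chromosome 5, 69167010 to 69178245 on GRCh38), which encodes cyclin B1, had a recovered mean of 10929 ± 197 (SE, n = 3) normalized counts in siControl cells in DMSO and 3513 ± 69.2 in Nutlin-3a. In siANKRA2 cells it stood at 5332 ± 101 and 1746 ± 38.4, and in siRFXANK cells at 10245 ± 185 and 5055 ± 95.9. Its siANKRA2 level in DMSO was thus nearer to the siControl level in Nutlin-3a than to that in DMSO. CDK1 (chromosome 10, 60778331 to 60794852), the kinase that cyclin B1 activates, fell from 5585 ± 152 to 1448 ± 43.7 in siControl cells and from 3485 ± 97.0 to 1305 ± 39.9 in siANKRA2 cells. In siRFXANK cells it fell from 6186 ± 167 to 2430 ± 69.4, so that its DMSO level was highest there.

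PLK1 (chromosome 16, 23677656 to 23690367), a kinase of mitotic entry and spindle assembly, fell from 7478 ± 166 to 1883 ± 47.0 normalized counts in siControl cells. In siANKRA2 cells it fell from 2864 ± 67.9 to 545.7 ± 17.7, and in siRFXANK cells from 7726 ± 171 to 3472 ± 80.8. The siANKRA2 level in Nutlin-3a was the lowest of its 6 groups and the siControl and siRFXANK levels in DMSO were the highest. CDC20 (chromosome 1, 43358955 to 43363203), the activator of the APC/C at anaphase, stood at 10662 ± 217 and 3470 ± 75.9 in siControl cells, at 5701 ± 120 and 1819 ± 43.2 in siANKRA2 cells and at 12299 ± 249 and 5605 ± 118 in siRFXANK cells, in DMSO and Nutlin-3a in turn. AURKB (chromosome 17, 8204733 to 8210600), the kinase of the chromosomal passenger complex, stood at 1915 ± 51 and 475.9 ± 16.7 in siControl cells, 1114 ± 32.2 and 416.6 ± 15.2 in siANKRA2 cells, and 1145 ± 32.9 and 368.4 ± 14.0 in siRFXANK cells. Both knockdowns thus left AURKB below siControl in DMSO, unlike CDC20, which was lower only after siANKRA2.

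TOP2A (chromosome 17, 40388516 to 40417950), the topoisomerase that untangles sister chromatids, stood at 19830.5 ± 573 and 6544 ± 193 normalized counts in siControl cells, 7653 ± 225 and 2601 ± 80.1 in siANKRA2 cells, and 10980.4 ± 320 and 5433 ± 161 in siRFXANK cells. MKI67 (chromosome 10, 128096659 to 128126385), which encodes the proliferation antigen Ki-67, stood at 11550.2 ± 956 and 2784 ± 232, at 4891 ± 406 and 1041 ± 88.0, and at 8047 ± 667 and 5929 ± 492. Its errors were the widest of the 8 lead genes, and its siRFXANK levels were the closest to each other. FOXM1 (chromosome 12, 2857681 to 2877155), a transcription factor of G2, stood at 16408 ± 294 and 5342 ± 102 in siControl cells, 11166 ± 203 and 5614 ± 107 in siANKRA2 cells, and 10887 ± 198 and 4941 ± 94.9 in siRFXANK cells. In Nutlin-3a, the FOXM1 levels of the 3 siRNA conditions thus lay between 4941 and 5614.

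**Figure D2:**
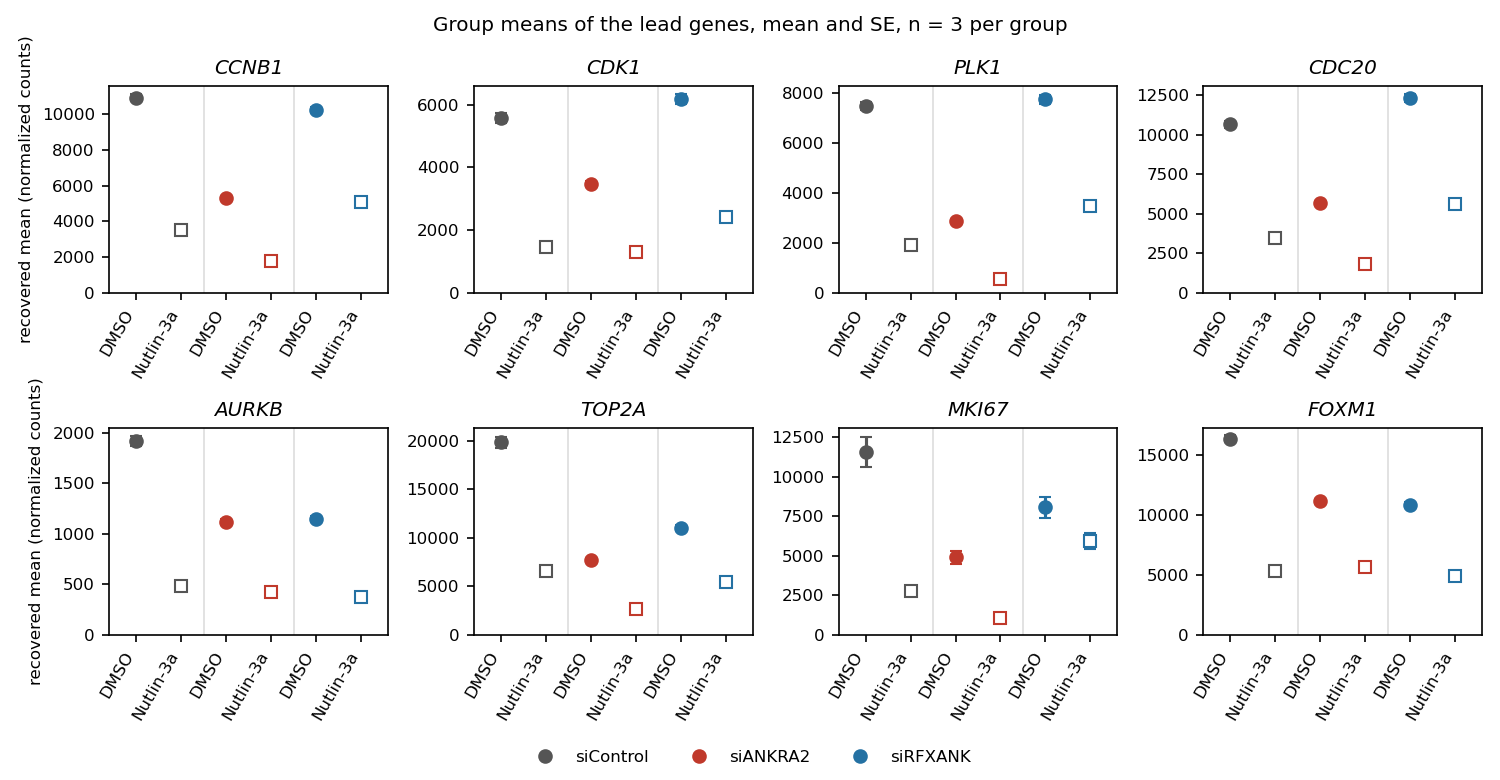
Recovered group means in normalized counts (y axis, from 0) of the 8 lead genes, with filled circles for DMSO and open squares for Nutlin-3a, coloured by siRNA, and bars for the SE (n = 3). Every gene fell in Nutlin-3a under each siRNA, and PLK1 in siANKRA2 cells in Nutlin-3a stands at 545.7.

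Across all 59 members, the median recovered mean was 4073 normalized counts in siControl cells in DMSO and 1248 in Nutlin-3a. It was 2270 and 802.7 in siANKRA2 cells, and 4058 and 1740 in siRFXANK cells. The lowest of the 6 groups was siANKRA2 in Nutlin-3a for 52 members, siControl in Nutlin-3a for 5 and siRFXANK in Nutlin-3a for 2. The highest was siControl in DMSO for 33 and siRFXANK in DMSO for 26. Per kilobase of merged exons, levels in siControl cells in DMSO ran from 16.1 ± 1.56 (SE) normalized counts for PRC1, a microtubule bundler of the spindle midzone, to 5232 ± 106 for CDC20. CCNB1 followed at 4272 ± 76.9 and the spindle factor TPX2 at 4063 ± 64.6. Next to PRC1 at the low end stood GAS2L3 at 178 ± 6.77 and the kinetochore motor CENPE at 248 ± 15.5. Another gene on the same strand overlaps 57.6% of the merged exons of PRC1, so its level is uncertain. The part of this overlap in its low level was not tested.

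The first comparison asked how these genes responded to p53 activation in siControl cells. All 59 members were called lower in Nutlin-3a, against 21.2% of all 25909 genes tested. Their median log2 fold change was -1.90, where that of the 13103 genes with an authors' mean of at least 100 was -0.01. The list was drawn up as targets of DREAM and FOXM1, with earlier results of these data known. A fall of the whole list in Nutlin-3a may thus follow from that choice. The upper and lower quartiles of the members were -1.64 and -2.01, and 58 of them fell at least 2-fold, 98.3% against 11.2% of all genes that changed as much in either direction. In bulk RNA, fewer cells in G2 and mitosis and less RNA per cell cannot be told apart. The largest falls were those of SPC25 (-2.42 ± 0.08, SE) and SPC24 (-2.29 ± 0.09), subunits of the NDC80 complex that holds microtubules. They were followed by the centromeric histone CENPA (-2.23 ± 0.06), the spindle protein NUSAP1 (-2.19 ± 0.05) and the gene of cyclin A2, CCNA2 (-2.19 ± 0.05). The smallest was that of BUB3 (-0.59 ± 0.03), a checkpoint protein, which kept 66.3% of its DMSO level. Of the lead genes, CCNB1 kept 32.1%, CDK1 25.9%, PLK1 25.2%, CDC20 32.5%, AURKB 24.9%, TOP2A 33.0%, MKI67 24.1% and FOXM1 32.6%. The largest adjusted p among the members was 1e-14 (PRC1, DESeq2).

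By role, the medians in siControl cells lay close together. The 7 centromere and kinetochore genes had the lowest, at -2.11, and the 6 cytokinesis genes the highest, at -1.62. Between them stood the 4 mitotic kinases at -1.95, the 4 other proliferation genes at -1.95, the 8 genes of spindle assembly and orientation at -1.89, and the 4 of securin, separase and the shugoshins at -1.86. The chromosomal passenger complex had a median of -1.81, the cyclins, CDK1 and CDC25 phosphatases of -1.79, the 2 transcription factors of -1.79, the 8 genes of the spindle checkpoint and of APC/C activation of -1.74, and condensin with topoisomerase II of -1.67. Condensin subunits were split, since NCAPH kept 22.9% of its DMSO level and NCAPG 23.4%, while NCAPD2, a subunit of the same condensin I complex, kept 47.5%. The 36 members with TTTGAA or TTCGAA had a median of -1.90 and the 14 with neither a median of -1.94. Other forms of the CHR were not searched, so the 14 are not shown to lack one.

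In siANKRA2 cells, all 59 members were again called lower in Nutlin-3a than in DMSO, against 17.0% of 22738 genes. Their median was -1.50, with quartiles of -1.76 and -1.31. At least 2-fold falls were seen in 52, or 88.1%, where 4.35% of all genes changed as much in either direction. HMMR, a spindle protein also known as the hyaluronan receptor RHAMM, fell most, by 2.56 on the log2 scale (SE 0.11), to 16.9% of its DMSO level. PLK1 (-2.39 ± 0.06, SE), MYBL2 (-2.28 ± 0.05), MKI67 (-2.23 ± 0.17) and CENPA (-2.09 ± 0.09) came next. BUB3 fell least (-0.21 ± 0.03), and CDC25B (-0.67 ± 0.04), PTTG1 (-0.80 ± 0.07) and MELK (-0.92 ± 0.04) little more. Among the remaining lead genes, CCNB1 kept 32.7%, CDC20 31.9%, TOP2A 34.0%, CDK1 37.4%, AURKB 37.4% and FOXM1 50.3% of their DMSO levels.

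In siRFXANK cells the Nutlin-3a response was derived from the deposited comparisons, since no table held it. All 59 members were lower, against 22.5% of 25116 genes (two-sided normal test, Benjamini-Hochberg adjusted p under 0.05). The median was -1.11, with quartiles of -1.29 and -0.90. At least 2-fold falls were seen in 39 members, or 66.1%, where 10.2% of all genes changed as much in either direction. SPC25 (-1.93 ± 0.07, SE), SPC24 (-1.88 ± 0.08), SAPCD2 (-1.69 ± 0.06), AURKB (-1.64 ± 0.07) and MYBL2 (-1.62 ± 0.03) fell most. BUB3 (-0.38 ± 0.03), ASPM (-0.42 ± 0.15), MKI67 (-0.44 ± 0.17), CENPF (-0.46 ± 0.11) and CENPE (-0.56 ± 0.13) fell least. MKI67 kept 73.7% of its DMSO level, CCNB1 49.3%, CDK1 39.3%, PLK1 44.9%, CDC20 45.6%, TOP2A 49.5%, FOXM1 45.4% and AURKB 32.2%.

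Other members are given here by role, with the log2 fold change of Nutlin-3a over DMSO in siControl, siANKRA2 and siRFXANK cells in turn. Of the mitotic cyclins, CCNA2 stood at -2.19, -1.85 and -1.49 and CCNB2, cyclin B2, at -1.39, -1.16 and -1.03. The phosphatases that activate CDK1 differed, with CDC25C at -1.98, -1.41 and -1.14 and CDC25B at -1.20, -0.67 and -0.90. CDC25B fell less than CDC25C under each siRNA, and that pair of genes was not compared by a test. The kinase AURKA, which acts at spindle poles, stood at -1.73, -1.50 and -1.12, and PBK at -1.92, -1.29 and -1.24. The checkpoint genes BUB1 (-1.83, -1.49 and -0.89), BUB1B (-2.08, -1.73 and -0.98) and TTK (-2.05, -1.48 and -1.14) fell in that order of conditions too. UBE2C, which starts ubiquitin chains for the APC/C, stood at -1.66, -1.59 and -1.21, and UBE2S, which extends them, at -1.57, -0.96 and -1.07.

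Within the chromosomal passenger complex, CDCA8 (borealin) stood at -1.90, -1.35 and -1.24, the scaffold INCENP at -1.70, -1.36 and -1.03, and BIRC5 at -1.72, -1.34 and -1.25. Of the kinetochore genes, NDC80 (-2.11, -2.04 and -1.39) and CENPF (-1.72, -1.77 and -0.46) had nearly the same fall in siControl and siANKRA2 cells, and NUF2 stood at -1.86, -1.60 and -1.12. The condensin ATPases SMC2 (-1.68, -1.25 and -0.95) and SMC4 (-1.66, -1.44 and -0.89) were close to each other. Separase, ESPL1, which cuts cohesin, stood at -2.01, -1.32 and -1.20, and its inhibitor securin, PTTG1, at -1.10, -0.80 and -0.83. SGO1 stood at -1.90, -1.41 and -1.11 and SGO2 at -1.82, -1.74 and -0.83.

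Among the spindle genes, TPX2, an activator of Aurora A, stood at -1.65, -1.62 and -1.02. DLGAP5 (-1.88, -1.83 and -1.04), TACC3 (-1.80, -1.61 and -1.19), CKAP2L (-1.97, -1.61 and -0.98) and NUSAP1 (-2.19, -1.48 and -1.55) had their lowest values in siControl cells. Of the cytokinesis genes, the actin-binding protein ANLN stood at -1.60, -1.44 and -0.60, RACGAP1 of the midzone complex centralspindlin at -1.62, -1.21 and -1.02, its partner ECT2 at -1.59, -1.25 and -0.67, the abscission protein CEP55 at -1.91, -1.71 and -1.05, and GAS2L3 at -1.63, -1.03 and -0.60. Of the remaining genes, CDCA3 stood at -1.98, -1.84 and -1.43, DEPDC1 at -1.90, -1.44 and -0.96, and the nuclear lamin LMNB1 at -1.93, -1.62 and -1.56. Of the genes in this account, TPX2 had the smallest standard error in siControl cells, 0.03, and CENPF the largest, 0.11. All of these falls were called.

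**Figure D3:**
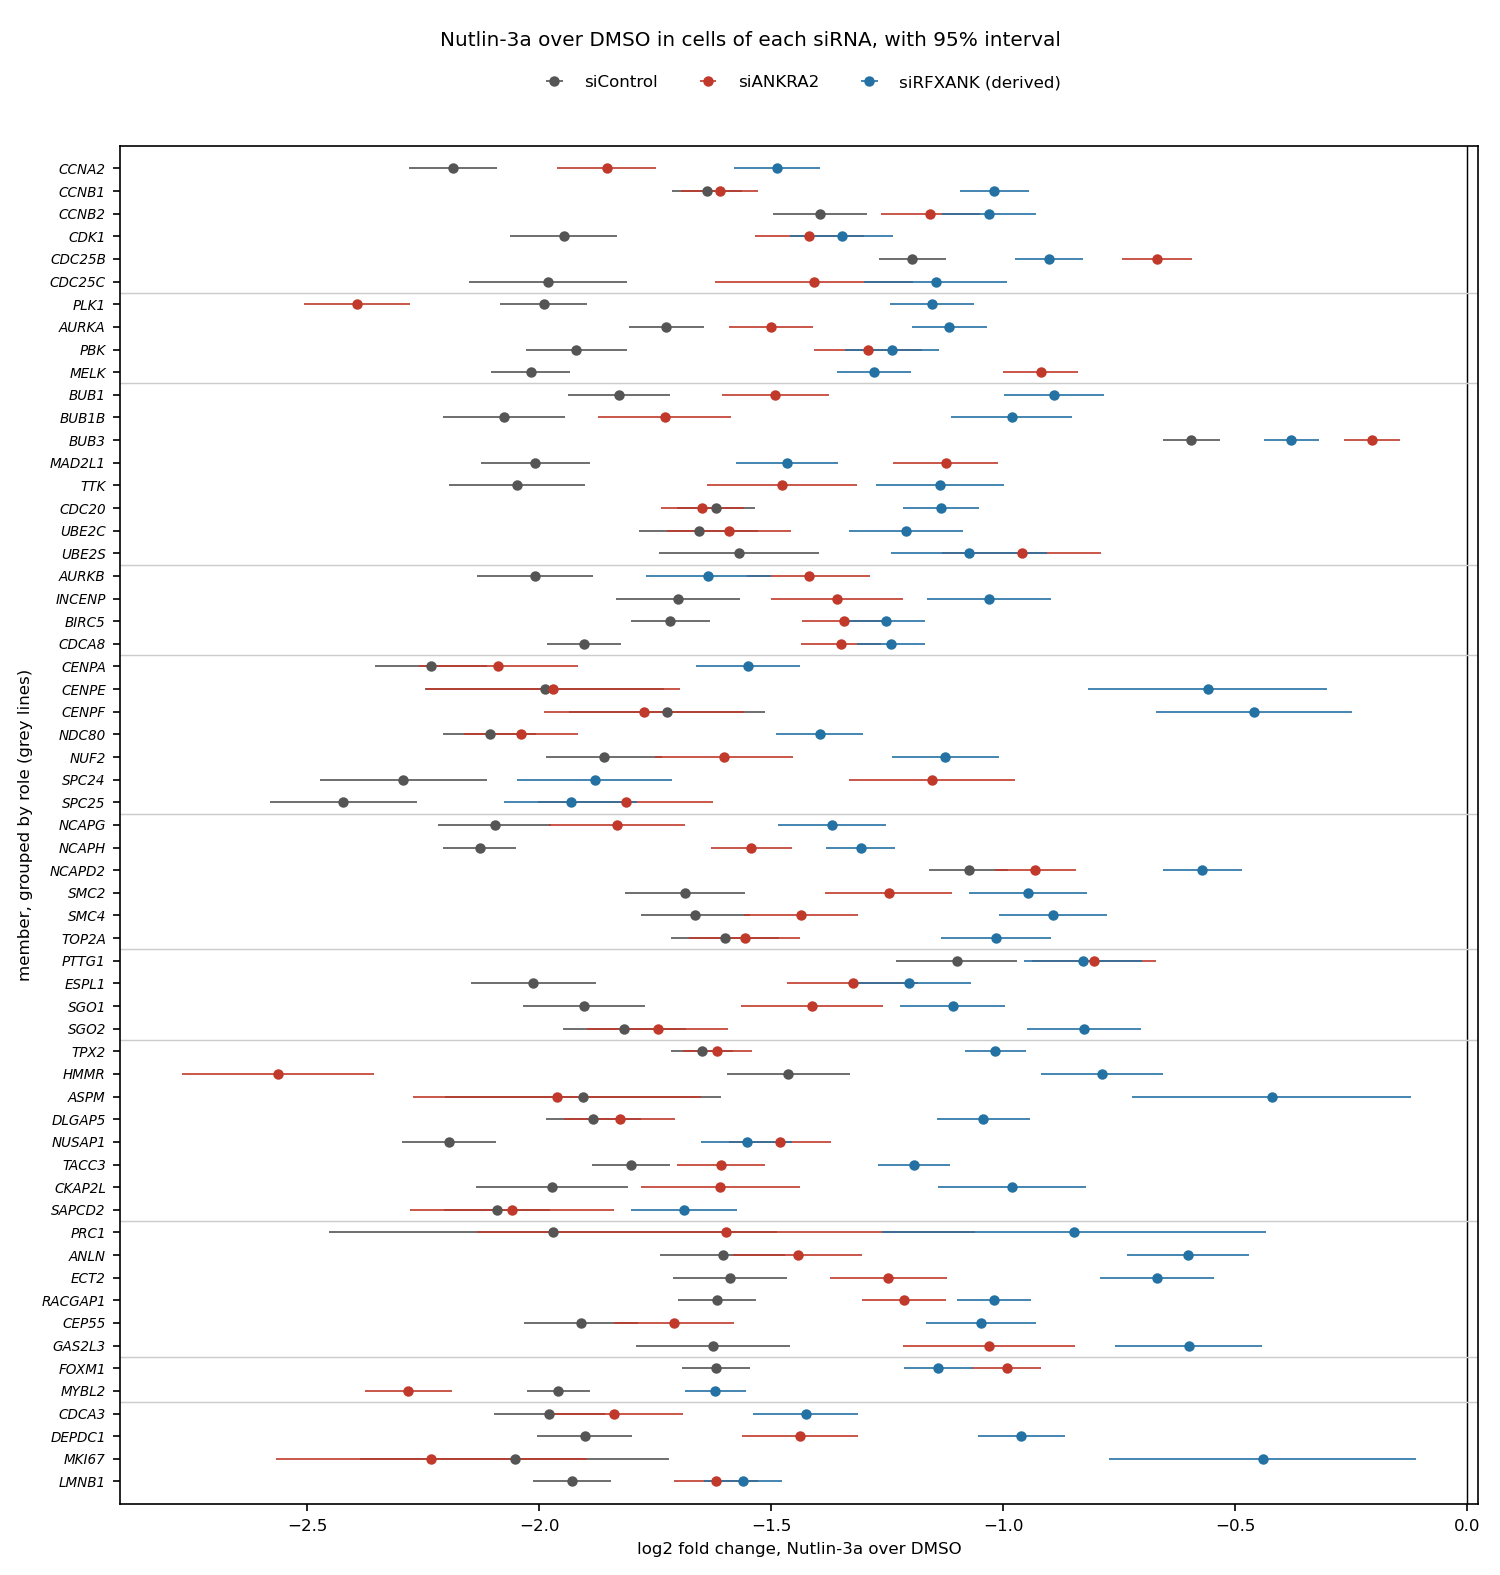
Log2 fold change of Nutlin-3a over DMSO (x axis) of each of the 59 members (y axis, separated by role with grey lines) in siControl, siANKRA2 and siRFXANK cells, with 95% intervals. All points lie below 0, and siRFXANK points lie nearest to 0 for most members, with HMMR at -2.56 in siANKRA2 cells farthest from it.

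The next comparison asked what depletion of ANKRA2 did to these genes without Nutlin-3a. In DMSO, 58 of 59 members were lower after siANKRA2 than after siControl and none was higher, against 24.5% of 26702 genes called lower. The median was -1.02, and -0.01 over genes with an authors' mean of at least 100. The remaining member was UBE2S (0.05 ± 0.09, SE), the ubiquitin-conjugating enzyme that extends chains for the APC/C, with a 95% interval from -0.12 to 0.22 (DESeq2 adjusted p = 0.70). SAPCD2, a regulator of spindle orientation, was lowest at -2.79 ± 0.07, which is 14.5% of its siControl level. MYBL2 (-1.91 ± 0.03), HMMR (-1.90 ± 0.07), CENPA (-1.63 ± 0.06) and the phosphatase gene CDC25C (-1.56 ± 0.08) followed. Small falls were seen for BUB3 (-0.16 ± 0.03), UBE2C (-0.27 ± 0.06), MAD2L1 (-0.30 ± 0.05) and MELK (-0.34 ± 0.04). By role, centromere and kinetochore genes had a median of -1.36 and those of spindle assembly of -1.35, while that of the spindle checkpoint and APC/C activation was -0.59. Of the lead genes, PLK1 stood at 38.3% of siControl, TOP2A at 38.6%, MKI67 at 42.3%, CCNB1 at 48.8%, CDC20 at 53.5%, AURKB at 58.2%, CDK1 at 62.4% and FOXM1 at 68.1%. CDKN1A was higher in the same comparison, at a log2 fold change of 2.04 ± 0.04 (SE). Of 8 p53 targets that act on the cell cycle, CDKN1A among them, 5 were called higher and 0 lower, with a median of 0.41. Of all 26702 genes, 6481 were called higher. The part of these targets in the members' levels was not tested.

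In Nutlin-3a, 52 members were called lower after siANKRA2, against 25.5% of 26702 genes. Another 5 were called higher, where 24.6% of all genes were. The median was -0.69. HMMR was lowest at -3.003 ± 0.10 (SE), or 12.5% of its siControl level, with recovered means of 107 ± 6.73 in siANKRA2 and 857.7 ± 30 in siControl cells. SAPCD2 (-2.76 ± 0.11), MYBL2 (-2.24 ± 0.05), PLK1 (-1.79 ± 0.06) and CENPA (-1.49 ± 0.09) were next. The 5 higher members were MELK (0.76 ± 0.05), a kinase of proliferating cells, UBE2S (0.66 ± 0.09), the checkpoint proteins MAD2L1 (0.58 ± 0.06) and BUB3 (0.23 ± 0.03), and SPC24 (0.37 ± 0.10). Apart from UBE2S, these had been lower in DMSO. Of the NDC80 complex, SPC24 was thus higher while its partners NDC80 (-1.42 ± 0.06), NUF2 (-0.99 ± 0.08) and SPC25 (-0.77 ± 0.10) were lower. FOXM1 (0.07 ± 0.04, 95% interval -0.005 to 0.15, DESeq2 adjusted p = 0.12) and PRC1 (-0.31 ± 0.30, -0.91 to 0.28, adjusted p = 0.43) were not called. The lead genes stood at 28.98% of siControl for PLK1, 37.4% for MKI67, 39.7% for TOP2A, 49.7% for CCNB1, 52.4% for CDC20, 87.5% for AURKB and 90.1% for CDK1.

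**Figure D4:**
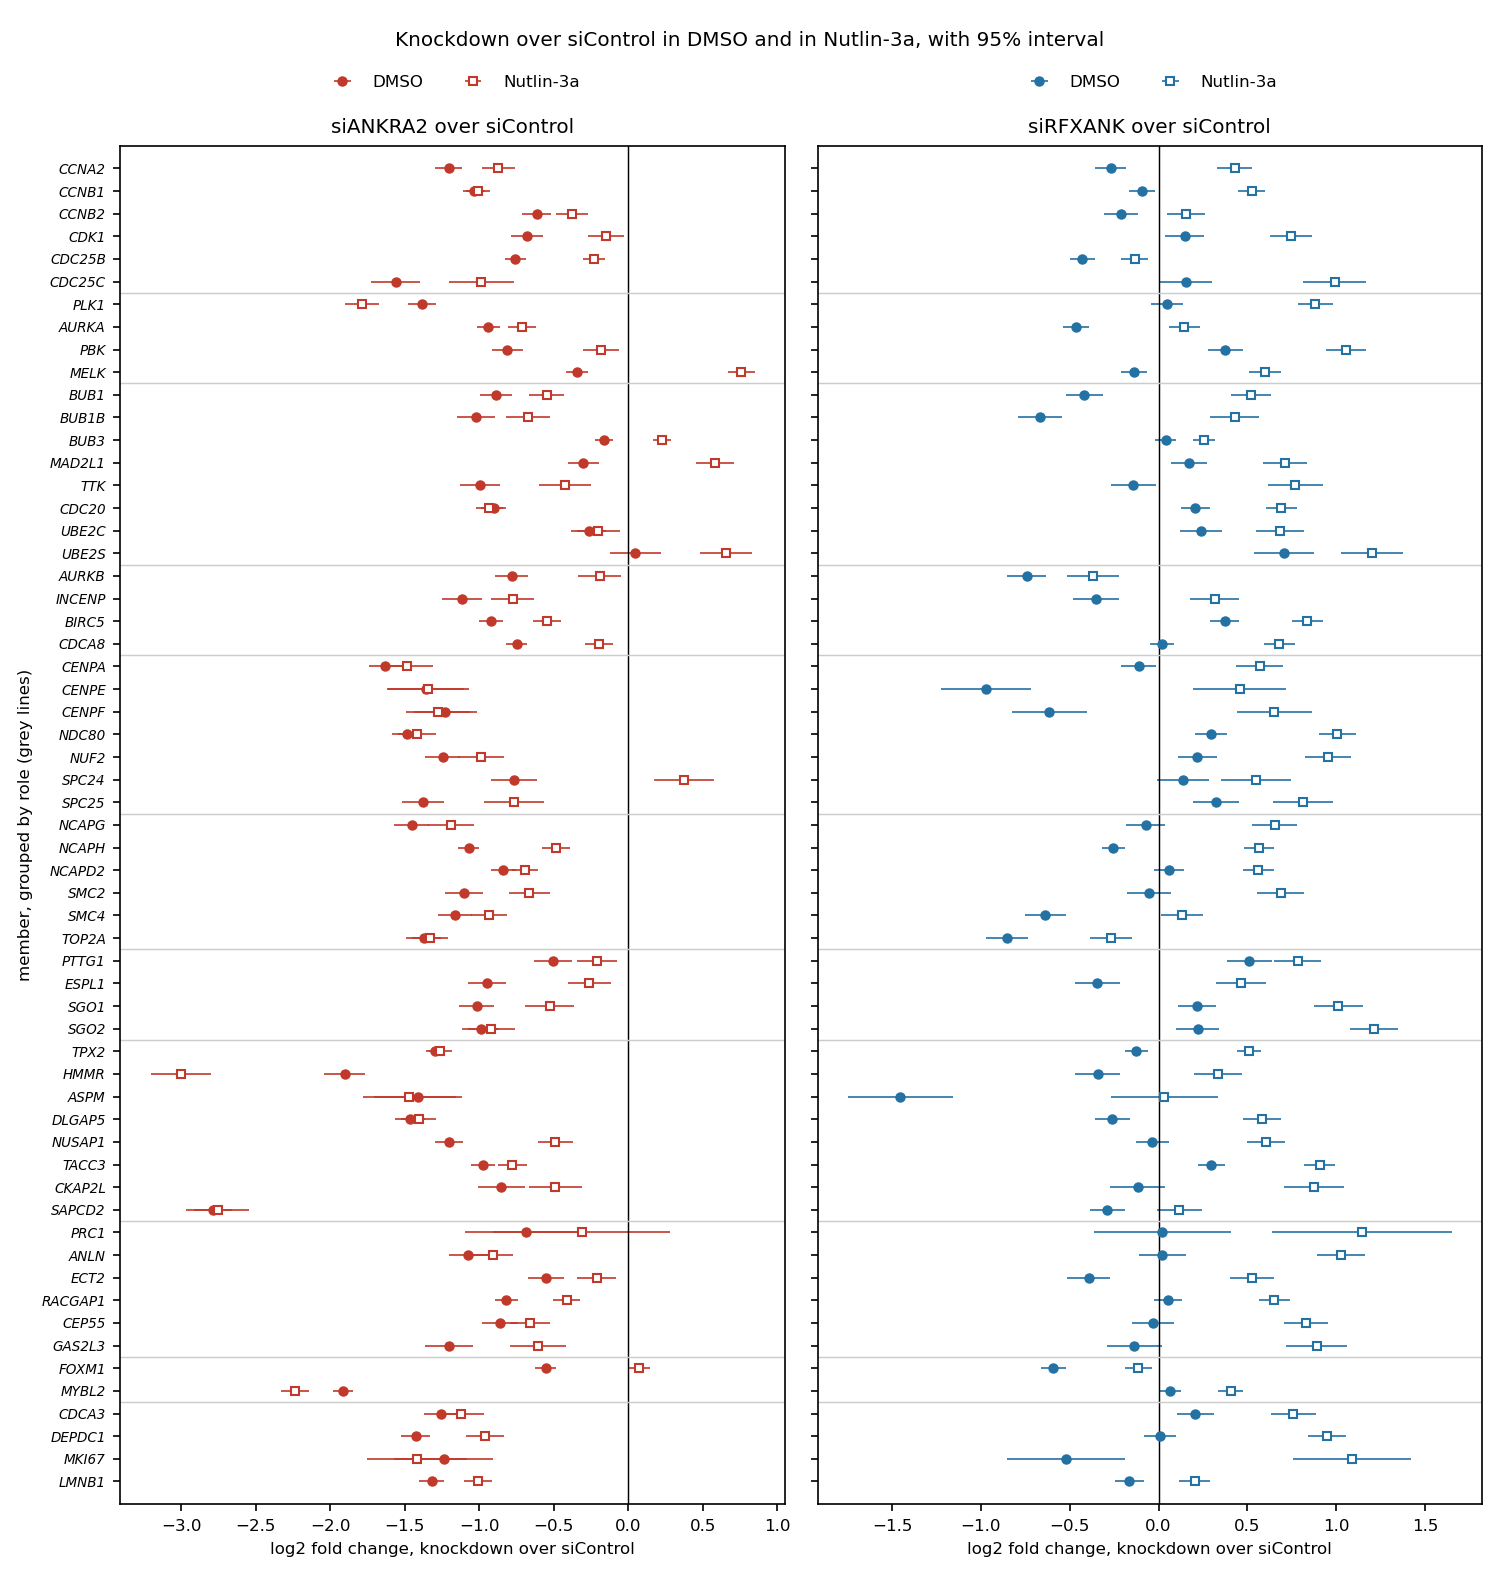
Log2 fold change of knockdown over siControl (x axis) of each member (y axis, by role) in DMSO (filled circles) and Nutlin-3a (open squares), with 95% intervals, for siANKRA2 on the left and siRFXANK on the right. After siANKRA2 nearly all points lie below 0 in both treatments, while after siRFXANK they spread around 0 in DMSO and lie mostly above it in Nutlin-3a.

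After siRFXANK in DMSO, the members did not move one way. The tables called 25 lower, against 21.2% of 25909 genes, and 15 higher, against 20.9%. Of the 13103 genes with an authors' mean of at least 100, 4643 were called lower and 4460 higher. The other 19 members were not called, and the members' median was -0.07. Falls were led by ASPM (-1.45 ± 0.15, SE), a spindle pole protein, at 36.5% of siControl. CENPE (-0.97 ± 0.13), TOP2A (-0.85 ± 0.06), AURKB (-0.74 ± 0.06) and the checkpoint gene BUB1B (-0.67 ± 0.06) followed. Rises were led by UBE2S (0.71 ± 0.09), the securin gene PTTG1 (0.51 ± 0.06) and the kinase PBK (0.38 ± 0.05). Of the chromosomal passenger complex, AURKB and INCENP (-0.35 ± 0.07) were thus lower while survivin, BIRC5 (0.37 ± 0.04), was higher and CDCA8 (0.02 ± 0.03) was not called. Among the lead genes, FOXM1 (-0.59 ± 0.04), MKI67 (-0.52 ± 0.17) and CCNB1 (-0.09 ± 0.04) were also lower, and CDC20 (0.21 ± 0.04) and CDK1 (0.15 ± 0.06) higher. PLK1 was not called (0.05 ± 0.05, 95% interval -0.04 to 0.14, DESeq2 adjusted p = 0.45).

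The other members not called were CDC25C, BUB3, TTK, CENPA, SPC24, NCAPG, NCAPD2, SMC2, NUSAP1, CKAP2L, PRC1, ANLN, RACGAP1, CEP55, GAS2L3, MYBL2 and DEPDC1. Their values ran from -0.14 (TTK and GAS2L3) to 0.16 (CDC25C). Apart from PRC1, with an interval from -0.36 to 0.41, the 95% intervals of all 19 lay between -0.29 and 0.30. Cytokinesis genes were the role with the most members not called, 5 of 6, with ECT2 at -0.39 ± 0.06 the exception. Of all 25909 genes, 14994 were not called, and of the 13103 with an authors' mean of at least 100, 4000 were not.

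After siRFXANK in Nutlin-3a, 52 members were called higher than in siControl cells, against 19.8% of 25116 genes, and 4 were called lower, against 19.6%. The median was 0.65, and 0.02 over genes with an authors' mean of at least 100. The shugoshin SGO2, which protects centromeric cohesion, was highest at 1.21 ± 0.07 (SE), followed by UBE2S (1.202 ± 0.09) and PRC1 (1.14 ± 0.26). The 4 lower members were AURKB (-0.37 ± 0.07), TOP2A (-0.27 ± 0.06), CDC25B (-0.14 ± 0.04) and FOXM1 (-0.11 ± 0.04), and all 4 were lower in DMSO too. SMC4 (0.13 ± 0.06, DESeq2 adjusted p = 0.067), SAPCD2 (0.12 ± 0.07, adjusted p = 0.15) and ASPM (0.03 ± 0.15, adjusted p = 0.90) were not called. MKI67 stood at 213% of siControl, PLK1 at 184.4%, CDK1 at 167.8%, CDC20 at 161.5% and CCNB1 at 143.9%. Of the 52 higher members, 18 had been lower in DMSO, 15 had been higher there too and 19 had not been called. The 15 included CDK1, CDC20, UBE2C, UBE2S, NDC80, NUF2, SPC25 and both shugoshin genes.

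The last comparison tested whether the Nutlin-3a response itself differed between a knockdown and siControl cells, as the difference of the log2 fold changes (two-sided normal test, adjusted p under 0.05 over all genes). Both differences share the siControl samples. For siANKRA2, 37 members were called for a smaller fall than in siControl cells, where 11.4% of 22738 genes were called for a positive difference. A larger fall was called for 3, where 12.5% of all genes were called for a negative difference. The median difference was 0.33, and -0.01 over genes with an authors' mean of at least 100. The largest positive differences were those of SPC24 (1.14 ± 0.13, SE), MELK (1.099 ± 0.06) and MAD2L1 (0.88 ± 0.08). The 3 members with a larger fall were HMMR (-1.099 ± 0.13), PLK1 (-0.40 ± 0.08) and MYBL2 (-0.32 ± 0.06). Among the lead genes, FOXM1 (0.63 ± 0.05), AURKB (0.59 ± 0.09) and CDK1 (0.53 ± 0.08) fell less.

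For the other 19 members the difference was not called. CCNB1 (0.03 ± 0.06, 95% interval -0.09 to 0.14, adjusted p = 0.81), CDC20 (-0.03 ± 0.06, -0.15 to 0.09, adjusted p = 0.82), TOP2A (0.04 ± 0.09, -0.13 to 0.21, adjusted p = 0.80) and MKI67 (-0.18 ± 0.24, -0.65 to 0.29, adjusted p = 0.68) were among them under this normal test. With them stood UBE2C, CENPA, CENPE, CENPF, NDC80, NCAPD2, SGO2, TPX2, ASPM, DLGAP5, SAPCD2, PRC1, ANLN, CEP55 and CDCA3, between -0.06 (ASPM) and 0.37 (PRC1). By count, spindle assembly and kinetochore genes had the most such members, 4 of 8 and 4 of 7. Cytokinesis genes had 3 of 6 and other proliferation genes 2 of 4. Of all 22738 genes, 17285 were not called for this difference, and of the 13103 with an authors' mean of at least 100, 8242 were not. In the chromosomal passenger complex, all 4 genes had a smaller fall.

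For siRFXANK, all 59 members were called for a smaller fall, where 11.6% of 25116 genes were called for a positive difference. The median difference was 0.68, and 0.01 over genes with an authors' mean of at least 100. A difference between batches would drop out of this value only where it was alike in DMSO and in Nutlin-3a. MKI67 (1.61 ± 0.24, SE), ASPM (1.48 ± 0.22) and CENPE (1.43 ± 0.19) differed most, with CENPF at 1.27 ± 0.15. These are the members with the longest merged exons, from 9444 to 12807 bases, and their standard errors were the largest after that of PRC1 (1.12 ± 0.32). Whether length has a part in the result was not tested. BUB3 (0.22 ± 0.04), PTTG1 (0.27 ± 0.09) and CDC25B (0.29 ± 0.05) differed least. The lead genes PLK1 (0.84 ± 0.07), CCNB1 (0.62 ± 0.05), CDK1 (0.60 ± 0.08), TOP2A (0.58 ± 0.08), CDC20 (0.49 ± 0.06), FOXM1 (0.48 ± 0.05) and AURKB (0.37 ± 0.09) lay between. HMMR, PLK1 and MYBL2 had a larger fall in siANKRA2 and a smaller one in siRFXANK cells. By role, cytokinesis genes had the highest median difference under siRFXANK, 0.96, and the transcription factors the lowest, 0.41.

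**Figure D5:**
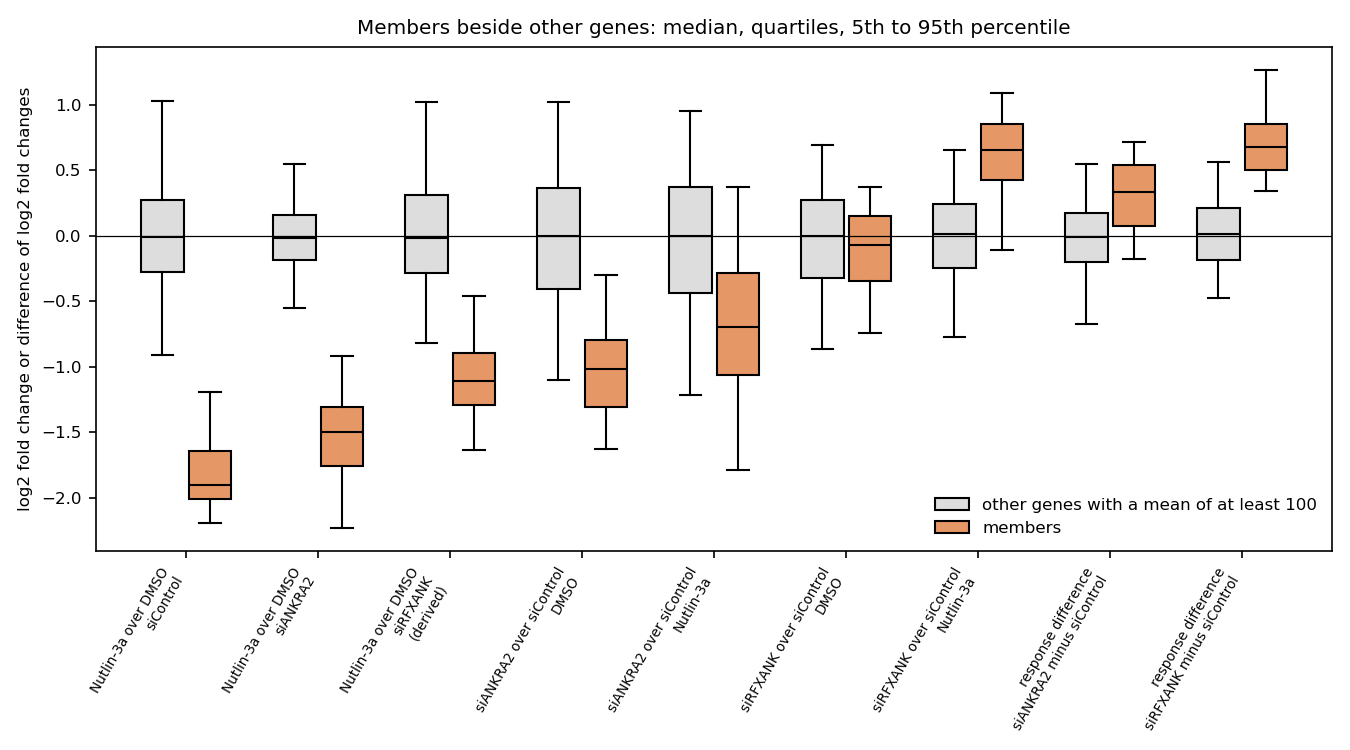
Log2 fold changes, and differences of log2 fold changes (y axis), of the 59 members (orange) and of other genes with an authors' mean of at least 100 (grey) in the 9 comparisons, with the median, quartiles (box) and the 5th to 95th percentiles (whiskers). Medians of the other genes stay near 0, while those of the members run from -1.90 for Nutlin-3a in siControl cells to 0.68 for the response difference of siRFXANK.

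Other parts of the cell cycle programme are set beside the members from lists of related genes. The shares of all genes called in each comparison, given above, hold for these lists too. Of 12 mitotic kinesins, motors of the spindle, all were lower in Nutlin-3a in siControl cells with a median of -1.89, and all 12 were lower after siANKRA2 in DMSO with a median of -1.08. Of 40 genes of G1/S and DNA replication, all 40 were lower in Nutlin-3a in siControl cells, with a median of -1.88, close to that of the members. After siANKRA2 in Nutlin-3a, 12 of these 40 were lower, against 25.5% of all genes, and 20 higher, against 24.6%, with a median of 0.14, where the members had -0.69. For this list the response difference of siANKRA2 was called positive for all 40, with a median of 0.81, and that of siRFXANK for 31, with a median of 0.39. The members' medians for these were 0.33 and 0.68, in the other order. The difference between the lists was not tested. The helicase subunit MCM2, for instance, had response differences of 1.18 ± 0.06 (SE) and 0.40 ± 0.06. Of 26 further kinetochore genes, 26 were lower in Nutlin-3a in siControl cells (median -1.69), but 14 were higher and 9 lower after siANKRA2 in Nutlin-3a (median 0.19), against 24.6% and 25.5% of all genes.

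Of 12 DREAM and MuvB subunits, 8 were lower and 2 higher in Nutlin-3a in siControl cells, against 21.2% and 21.9% of all genes, with a median of -0.64. LIN9 (-1.81 ± 0.09, SE) and LIN54 (-1.36 ± 0.08) of the MuvB core fell, while RBL2, the pocket protein p130 of DREAM, was higher (0.24 ± 0.06). After siANKRA2, RBL2 was lower in DMSO (-1.25 ± 0.07) and in Nutlin-3a (-1.37 ± 0.07). Of 15 APC/C subunits, 11 were lower and 1 higher in Nutlin-3a in siControl cells, with a median of -0.35. All 8 p53 targets that act on the cell cycle were higher in Nutlin-3a under each siRNA, with medians of 1.72 in siControl, 0.64 in siANKRA2 and 1.16 in siRFXANK cells. Of all genes, 21.9%, 15.5% and 22.8% were called higher there. CDKN1A rose by 3.27 ± 0.04 in siControl, 1.42 ± 0.04 in siANKRA2 and 2.45 ± 0.04 in siRFXANK cells. The difference of its response from siControl cells was -1.85 ± 0.06 for siANKRA2, where its DMSO level was already higher (2.04 ± 0.04), and -0.82 ± 0.06 for siRFXANK. The members' median response differences were 0.33 in siANKRA2 and 0.68 in siRFXANK cells. The part of CDKN1A in them was not tested.

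Some members share sequence with, or overlap, other annotated genes, and their values are less certain. In GENCODE 29, 57.6% of the merged exons of PRC1 are overlapped on the same strand by AC068831.7, and 62.2% of those of NUSAP1 by AC087721.2. Of their longest transcripts, 64.5% and 70.5% of the stretches of 31 bases also occur in other genes. PRC1 had an authors' mean of 58.9 normalized counts, the lowest of the members. Shared stretches were above 10% in CDC20 (23.6%), DEPDC1 (21.6%), AURKA (20.3%), UBE2S (19.98%), SPC25 (16.4%), PTTG1 (15.3%) and SPC24 (11.6%). Genes on the other strand overlap 33.1% of NCAPG, 25.6% of SMC4, 22.9% of SAPCD2, 17.7% of SGO1, 15.9% of FOXM1 and 12.5% of PLK1. How the authors' counting used strand is not given in the sources used here.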

How the data were processed

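RNA-seq of U2OS cells in 6 groups of 3 samples was described from 6 comparison tables. The submitters' processing notes name bcl2fastq 2.20.0.422, Trimmomatic 0.39, cutadapt 2.10, FastQC 0.11.9, SAMtools 1.10, Picard, featureCounts 1.6.5, DESeq2 1.20.0 and hg38. The aligner, annotation and strand setting are not given in the sources used here. Per gene, the authors deposited their mean normalized count over all samples (a signal value), the log2 fold change with its standard error on the log2 scale, the Wald score, and the p-value both raw and adjusted by the Benjamini-Hochberg method. These comparison columns were used as the authors' values. The given paper does not report this experiment.

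No count model was fitted here. Response differences and the siRFXANK response were derived from the authors' log2 fold changes, with SEs combined for independent groups, and given a two-sided normal p adjusted by Benjamini-Hochberg over all genes. Group means were recovered by least squares on the authors' squared SEs, with means under 0.5 set to 0.5. These steps were also run on simulated counts. The simulated SEs followed the same formula that the recovery assumes, so that run cannot show whether the formula holds for these data. Promoters came from RefSeq on GRCh38.p14, and gene coordinates, overlaps and shared stretches from GENCODE 29 on GRCh38. Python 3.11.15, NumPy 2.4.6, pandas 2.3.3, SciPy 1.17.1 and matplotlib 3.10.9 were used. Intervals are 95%.

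Members, roles and lists were chosen with earlier results of these data known. Any member may be named. Values were given per comparison for the 5 largest falls and 3 largest rises among called members, for members not called or against the majority, and for 8 lead genes. Other genes are named from the lists only. Alternatives were a threshold of 0.01, an absolute log2 change of at least 1, minimum means of 10 and 100, centring on the median, adjusting again, another pair of tables, other scales of the recovered means, and other windows and strands of the promoter search.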

Additional observations from a re-analysis of the deposited data

Results flagged for a closer look

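A response to Nutlin-3a other than in siControl cells was called for 40 of 59 members in siANKRA2 cells and for 59 in siRFXANK cells, by a normal test of the difference itself. For siRFXANK, a batch and the knockdown cannot be told apart unless the batch acts alike in DMSO and in Nutlin-3a.

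In siANKRA2 cells, named members with a different response were HMMR (-1.099), PLK1 (-0.40) and MYBL2 (-0.32), with a larger fall, and SPC24 (1.14), MELK (1.099), MAD2L1 (0.88), FOXM1 (0.63), AURKB (0.59) and CDK1 (0.53), with a smaller one. In siRFXANK cells they were MKI67 (1.61), ASPM (1.48), CENPE (1.43), PLK1 (0.84), CCNB1 (0.62), CDK1 (0.60), TOP2A (0.58), CDC20 (0.49), FOXM1 (0.48) and AURKB (0.37), all with a smaller fall. All values are differences of log2 fold changes, knockdown minus siControl.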

How the results depend on the processing

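No paired analysis was possible because only comparisons between groups were at hand, without the values of single samples. Replicates could therefore not be left out in turn, and the depth cannot be given. Requiring also an absolute log2 change of at least 1 left fewer called members by its own construction. It left 39 for Nutlin-3a in siRFXANK cells, 31 and 17 for siANKRA2 in DMSO and Nutlin-3a, 1 and 8 for siRFXANK, and 3 and 8 for the response differences of siANKRA2 and siRFXANK. As shares these are 66.1% (all genes 10.2%), 52.5% (13.6%), 28.8% (14.5%), 1.69% (6.47%), 13.6% (5.8%), 5.08% (3.64%) and 13.6% (1.54%), so siRFXANK in DMSO fell below all genes and the siANKRA2 response difference came near them. Other thresholds, minimum means, centring and adjustments kept all counts within 1.5 times, and no value changed sign. Scaled to the authors' mean, the median recovered mean of siControl cells in DMSO was 4398 in place of 4073. Of the 48 means of the lead genes, 36 moved by more than the standard deviation between samples that the recovery itself implies. That deviation was not observed on samples. TTCGAA stood in 2% of members with only the 250 bases before the start searched, in place of 8%, near the 1.498% of all genes and the 2.02% of those with a mean of at least 100 in that window. CCAAT stood in 48% (all genes 23.3%) with only the gene's strand searched, in place of 76%.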
